A study of Mus musculus with 16 samples.

Results

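Relaxin 3 (Rln3), the gene that lies next to it (Il27ra), relaxin (Rln1) and the relaxin receptor Rxfp1 were followed across regulatory T cells (Treg) and conventional CD4-positive T cells of the mouse. The set holds 4 of the 49585 genes counted, taken by symbol. It was chosen by a readout of the same libraries: Rln3 was far higher in uterine Treg of non-pregnant mice than in uterine conventional cells. That contrast is therefore described here and not tested, and the question is whether Rln3 follows its neighbour Il27ra. RNA was sequenced from 16 libraries in 4 groups of 4, and all mice were of BALB/c background and carried Foxp3 IRES-GFP, a reporter that marks Foxp3-expressing cells with green fluorescent protein and was present in every group alike. Conventional cells (CD4conv, sorted as CD4+Foxp3-) were taken from non-pregnant uterus. Lymph node Treg (CD4+Foxp3+CD25+) came from para-aortic nodes of non-pregnant mice. Non-pregnant and pregnant uterine Treg were both labelled CD4+Foxp3+CD25-, so the sort gate as well as the tissue separates them from the lymph node Treg. Each library is a pool, of 20 mice for the non-pregnant groups and of 3 to 8 for the pregnant group. Pregnancy was at day 6 to 8 by the source labels, while 3 of the 4 titles name a later last day. CD4conv and pregnant uterine Treg were sequenced in batch 1, and lymph node and non-pregnant uterine Treg in batch 2. Comparisons that cross the batches cannot be told apart from a batch difference.

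Relaxins are small secreted hormones of the insulin superfamily. Relaxin, encoded in the mouse by Rln1, acts through the G protein-coupled receptor Rxfp1 and is known for remodelling connective tissue and vessels of the reproductive tract in pregnancy, whereas relaxin 3 is known mainly as a brain neuropeptide whose main receptor is Rxfp3. Il27ra encodes the specific chain of the receptor for interleukin 27, a cytokine made of the Il27 and Ebi3 products, and pairs with the Il6st product (gp130) to activate STAT proteins in T cells.

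Rln3 and Il27ra lie side by side on chromosome 8 (GRCm38, GENCODE M21). Rln3 (ENSMUSG00000045232) spans 84042929 to 84045000 on the minus strand, with 2 exons and 634 exonic bases. Il27ra (ENSMUSG00000005465) spans 84030294 to 84042589 on the same strand, with 3495 exonic bases. The 3′ end of Rln3 is 339 bp from the annotated start of Il27ra, so both are read in the same direction, Rln3 first, and they share no exon. At its other end Il27ra overlaps Palm3, a gene on the plus strand, by 2 bp. The libraries carry no strand information, so reads at that overlap cannot be assigned by strand. Rln1 (ENSMUSG00000039097) lies on chromosome 19, 29331170 to 29334670, and Rxfp1 (ENSMUSG00000034009) on chromosome 3, 79641611 to 79737880, both on the minus strand.

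**Figure D1:**
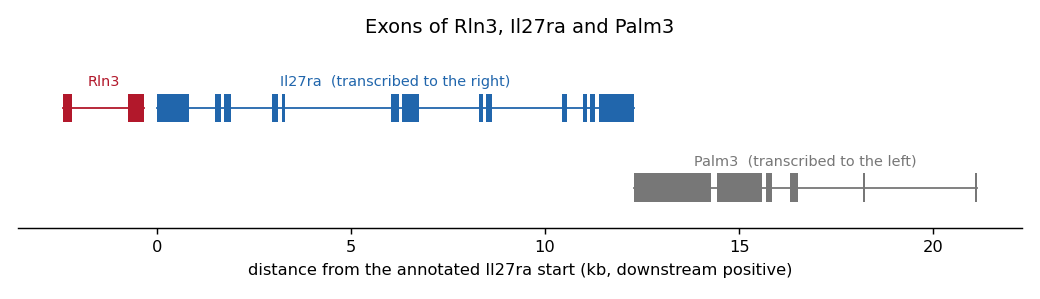
Exons of Rln3 (red), Il27ra (blue) and Palm3 (grey) from the GENCODE M21 annotation, as distance in kb from the annotated Il27ra start. Boxes are exons of any annotated transcript and lines the gene spans; Rln3 ends 339 bp before Il27ra begins, and Palm3 meets the far end of Il27ra with a 2 bp overlap.

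The 250 bases before the RefSeq start of the relaxin genes are shown because Rln3 was abundant in Treg while Rln1 stayed below 5 times the background level defined below. They come from RefSeq (GRCm38.p6), minus strand, 5′ to 3′, for chr8:84044980-84045229 (Rln3) and chr19:29334671-29334920 (Rln1). The RefSeq start of Rln3 differs from the GENCODE start, 84045000, which lies inside this window. The last bases printed for Rln3 therefore belong to the GENCODE gene. Of the 4 genes, entries of 2 were matched in the promoter table, and Il27ra and Rxfp1 were not.
Rln3: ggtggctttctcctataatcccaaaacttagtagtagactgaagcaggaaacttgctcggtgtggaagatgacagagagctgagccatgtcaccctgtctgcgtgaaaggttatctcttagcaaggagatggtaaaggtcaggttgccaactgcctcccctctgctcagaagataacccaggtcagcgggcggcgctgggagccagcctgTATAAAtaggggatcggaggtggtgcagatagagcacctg
Rln1: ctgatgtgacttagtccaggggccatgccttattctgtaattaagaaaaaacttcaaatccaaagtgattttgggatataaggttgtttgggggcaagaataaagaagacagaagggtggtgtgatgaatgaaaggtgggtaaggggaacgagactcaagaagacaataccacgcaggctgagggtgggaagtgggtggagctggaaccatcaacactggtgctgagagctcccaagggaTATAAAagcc
The capitals mark TATAAA, the letter string of a TATA box core, which begins 40 bases before the RefSeq start in Rln3 and 10 bases before it in Rln1. From the GENCODE start of Rln3 the distance is shorter. Only letters were matched, and whether either string acts as a TATA box was not tested. This motif was searched on the gene's own strand in windows that run from 250 bases before to 50 bases after the start, and 2733 of 32851 RefSeq promoters of that length hold it (8.32%). A forkhead motif (GTAAACA), a STAT motif (TTCNNNGAA), a RUNX motif (TGTGGT) and an AP-1 motif (TGANTCA) were searched on both strands. None of these letter strings is in either window. They occur in 3.65%, 8.30%, 16.8% and 7.81% of the promoters, respectively.

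Total counts ran from 1718558 to 15190212 per library. Foxp3, the factor that defines Treg, was between 0.503 and 3.26 CPM (counts per 1000000 counts of the library) in the CD4conv libraries and between 192 and 814 CPM in the 12 Treg libraries. All libraries also held reads in 1427 olfactory and vomeronasal receptor genes, which T cells do not use, at 0.702 to 4.33 CPM per exonic kilobase. This receptor-gene rate serves as a yardstick for low levels, and 6 libraries exceeded 2 CPM per kilobase. It was highest in pregnant uterine Treg 4. The summed levels of 3 marker lists of other cells were higher in CD4conv than in the Treg groups. That of 10 macrophage and dendritic cell genes was 1445 to 20749 CPM in CD4conv against 92.4 to 1211 CPM in the Treg libraries. It was 2467 to 5827 CPM against 88.5 to 550 CPM for 6 plasmacytoid dendritic cell genes. For 5 NK cell genes it was 330 to 1702 CPM against 7.94 to 41.1 CPM. The NK cell sum in CD4conv was mostly Tyrobp (mean 774 CPM) and Fcer1g (226 CPM). Ncr1 averaged 22.3, Klrb1c 2.89 and Eomes 5.88 CPM there. Eomes averaged 5.76, 2.46 and 7.96 CPM in lymph node, non-pregnant uterine and pregnant uterine Treg. The NK cell sum alone therefore does not show NK cells in CD4conv. For 5 further lists the libraries of CD4conv and Treg overlapped. Their median summed level in CD4conv, against the lowest and highest Treg group medians, was 95.4 CPM against 84.2 and 179 CPM for 6 fibroblast and uterine stroma genes and 32.8 against 39.5 and 78.6 CPM for 5 smooth muscle genes. It was 186 against 172 and 260 CPM for 4 endothelial genes, 48.1 against 42.0 and 67.1 CPM for 4 B cell genes and 100.4 against 35.6 and 45.6 CPM for 4 epithelial genes. These medians hide 1 library, non-pregnant uterine Treg 5. Its sum was 1058 CPM for the stroma genes (group median 174) and 445 CPM for the epithelial genes (group median 35.6). It also had the highest macrophage and dendritic cell sum of the Treg libraries, 1211 CPM. How such reads bear on its Rln3 and Il27ra levels was not tested. No gene of these 8 lists was at 0 throughout a group. Their part in the differences from CD4conv was not tested. In such bulk samples fewer cells of a type and less RNA per cell cannot be told apart.

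Rln3 was present in all 12 Treg libraries and nearly absent from CD4conv. In CD4conv the counts were 15, 0, 3 and 4, or 1.64, 0, 0.302 and 0.521 CPM in replicates 1, 2, 3 and 5. In lymph node Treg the counts were 415, 57, 40 and 149, or 65.9, 27.2, 23.3 and 37.7 CPM. In non-pregnant uterine Treg they were 93, 308, 79 and 16, or 32.9, 54.9, 33.5 and 7.92 CPM. The lowest Treg library, non-pregnant uterine Treg 5, still lay above the highest CD4conv library. In pregnant uterine Treg the counts were 253, 89, 286 and 63, or 19.5, 18.6, 18.8 and 17.6 CPM in replicates 1 to 4. The group means were 38.5 ± 19.2 CPM in lymph node Treg, 32.3 ± 19.2 in non-pregnant uterine Treg, 18.6 ± 0.783 in pregnant uterine Treg and 0.616 ± 0.715 in CD4conv (SD, n = 4 each). In that order the lymph node and non-pregnant uterine groups overlapped, as did the non-pregnant and pregnant uterine groups, while CD4conv lay below all others. The fitted log2 difference from CD4conv was 5.74 ± 0.95 (SE) for non-pregnant uterine Treg, the contrast by which Rln3 was chosen, and 4.88 ± 0.92 for pregnant uterine Treg. Both comparisons share the same CD4conv libraries, so no p is given for Rln3 in either. Over all genes, edgeR called 130 of 30096 between pregnant uterine Treg and CD4conv (0.432%), 10 higher and 120 lower in the Treg. Without CD4conv 3 the number called was 72, and without pregnant uterine Treg 1 or 2 it was 86.

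**Figure D2:**
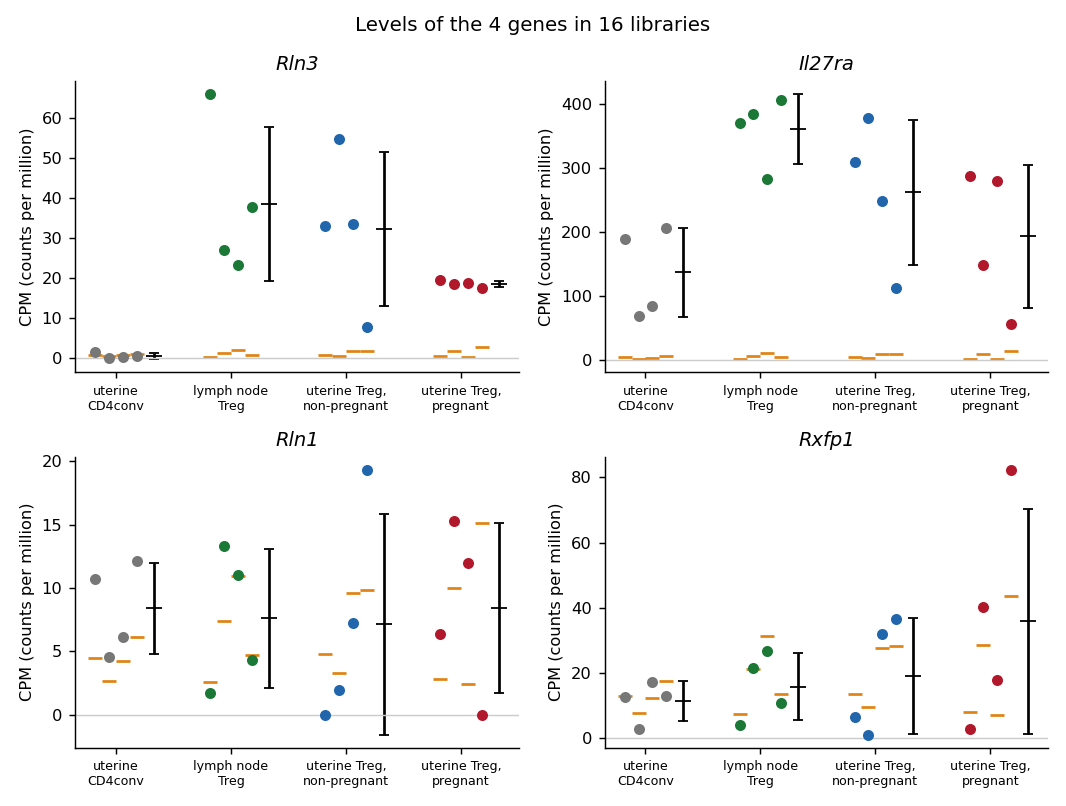
CPM of Rln3, Il27ra, Rln1 and Rxfp1 in each library (points, in the order of the replicate numbers) with the group mean ± SD (black, n = 4). Orange ticks mark the CPM that the receptor-gene rate of the same library gives for a gene of that exonic length. Rln3 in Treg and Il27ra in every group stand above the ticks. Rln1 and Rxfp1 stay below 5 times the tick in every library, and Rln1 is at 0 in 2 libraries.

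Against the receptor-gene rate, Rln3 stood at 11.8 to 140 times the rate in lymph node Treg, 4.43 to 92.7 times in non-pregnant uterine Treg, 6.42 to 42.3 times in pregnant uterine Treg and 0 to 2.01 times in CD4conv. It exceeded 5 times the rate in 11 of 16 libraries: all 4 of lymph node Treg, 3 of non-pregnant and 4 of pregnant uterine Treg, and none of CD4conv. In CD4conv replicate 2, a count of 0 allows up to 0.244 CPM (3 counts of the library total), and its 95% two-sided Poisson bound is 0.300 CPM. With the receptor-gene rate subtracted, Rln3 averaged 37.3 ± 19.8, 31.1 ± 19.7 and 17.3 ± 1.84 CPM in the Treg groups in the same order, and -0.18 ± 0.671 CPM in CD4conv (SD, n = 4).

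The spread of Rln3 within pregnant uterine Treg depended on the scaling. In CPM over total counts the highest value there was 1.11 times the lowest, and the coefficient of variation was 4.20%. The same 4 libraries spread 5.04-fold in Il27ra and 4.25-fold in Foxp3, with coefficients of variation of 57.4% and 67.0%. With library sizes scaled by TMM (edgeR's factors for differences in composition, as in the tests), Rln3 was at 25.7, 12.9, 26.4 and 11.7 CPM in replicates 1 to 4. On that scale replicates 1 and 3 were above 2 and 4, and the spread was 2.26-fold, beside 10.4-fold for Il27ra and 8.99-fold for Foxp3. The exact 95% Poisson interval of the 63 counts in replicate 4 was 13.5 to 22.6 CPM over total counts, a range that holds the other 3 values too. Such intervals cover counting error only, since reads from amplified cDNA are not independent molecules. In the remaining Treg groups Rln3 spread more, by 2.83-fold in lymph node Treg and 6.93-fold in non-pregnant uterine Treg, or 5.99-fold and 14.2-fold with TMM.

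No difference in Rln3 between the Treg groups passed the test. Pregnant uterine Treg and lymph node Treg did not overlap in CPM over total counts (17.6 to 19.5 against 23.3 to 65.9) but did with TMM scaling (11.7 to 26.4 against 17.6 to 105.1), with a log2 difference of -1.28 ± 0.77 (SE; 95% interval -2.95 to 0.40; adjusted p = 1.00, edgeR), and this comparison crosses the batches. Without lymph node Treg 1, the highest library, it was -0.49. No gene was called between these groups (0 of 30096, 0%), while 934 had an unadjusted p under 0.05 and DESeq2 called 45. Between non-pregnant uterine and lymph node Treg, which were sequenced in one batch, the log2 difference in Rln3 was -0.41 ± 0.76 (95% interval -2.07 to 1.25; adjusted p = 1.00, edgeR), and 0.37 without lymph node Treg 1. There too 0% of genes were called, with 905 at an unadjusted p under 0.05 and 31 calls by DESeq2. Between pregnant and non-pregnant uterine Treg it was -0.87 ± 0.76 (95% interval -2.53 to 0.80; adjusted p = 1.00, edgeR), where again 0% were called, with 822 at an unadjusted p under 0.05 and 17 calls by DESeq2. These intervals admit differences of more than 1 log2 unit, so the groups are not shown to be alike.

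Il27ra was expressed in every group, CD4conv included. In CD4conv it was at 189, 69.1, 84.7 and 206 CPM, in lymph node Treg at 370, 384, 282 and 406 CPM, and in non-pregnant uterine Treg at 310, 378, 248 and 112 CPM. In pregnant uterine Treg it was at 288, 149, 280 and 57.1 CPM, the last in replicate 4, the library with the highest receptor-gene rate. The group means were 361 ± 54.3 CPM in lymph node Treg, 262 ± 113 in non-pregnant uterine Treg, 193 ± 111 in pregnant uterine Treg and 137 ± 70.1 in CD4conv (SD, n = 4). All CD4conv libraries lay below all lymph node Treg libraries, but both uterine Treg groups overlapped with CD4conv and with each other. Il27ra exceeded 5 times the receptor-gene rate in 15 of 16 libraries, the exception being pregnant uterine Treg 4 at 3.77 times.

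The difference in Il27ra between Treg and CD4conv was small beside that in Rln3. The summed level of 6 T cell genes was also lower in CD4conv, with a median of 2340 CPM. The medians were 3743, 3526 and 3209 CPM in lymph node, non-pregnant uterine and pregnant uterine Treg. The lowest library of all was pregnant uterine Treg 4, at 1010 CPM, which was also lowest in Il27ra. The part of T cell RNA content in the Il27ra levels, or in their relation with Rln3, was not tested. In the contrast by which Rln3 was chosen the log2 difference in Il27ra was 0.91 ± 0.66 (SE), beside 5.74 ± 0.95 for Rln3. For pregnant uterine Treg against CD4conv it was 0.64 ± 0.65 (95% interval -0.78 to 2.06; adjusted p = 1.00, edgeR), beside 4.88 ± 0.92 for Rln3. Il27ra did not pass between Treg groups either (adjusted p = 1.00, edgeR, in each of the 3 comparisons): the log2 difference was -0.78 ± 0.65 for pregnant uterine against lymph node Treg, -0.50 ± 0.65 for non-pregnant uterine against lymph node Treg and -0.27 ± 0.65 for pregnant against non-pregnant uterine Treg.

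The counts of the neighbouring genes were next set against each other within each library, a measure that does not depend on library size. Rln3 made up 0.862%, 0%, 0.355% and 0.253% of the Rln3 and Il27ra counts together in CD4conv. In lymph node Treg it made up 15.1%, 6.60%, 7.62% and 8.49%, and in non-pregnant uterine Treg 9.60%, 12.7%, 11.9% and 6.58%. In pregnant uterine Treg it made up 6.36%, 11.1%, 6.31% and 23.6%. The Treg libraries thus ran from 6.31% to 23.6%, all above the highest CD4conv library, whose 95% Clopper-Pearson interval was 0.483% to 1.42%. Because Rln3 was chosen by its low level in these CD4conv libraries, that gap is a description and not a test. The intervals cover counting error only, since reads from amplified cDNA are not independent molecules. In CD4conv 2, the 0 of 850 counts allow a share of up to 0.353% (3 counts), and its two-sided Clopper-Pearson interval reaches 0.433%. Pregnant uterine Treg 4 stood highest, with 63 Rln3 counts beside 204 of Il27ra and an interval of 18.6% to 29.2%. Summed over each group, 22 Rln3 counts stood beside 4997 of Il27ra in CD4conv, 661 beside 5229 in lymph node Treg, 496 beside 3810 in non-pregnant uterine Treg and 691 beside 8892 in pregnant uterine Treg. Per exonic base the Rln3 level was 0.371 to 1.702 times that of Il27ra in the Treg libraries and at most 0.0479 times in CD4conv.

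**Figure D3:**
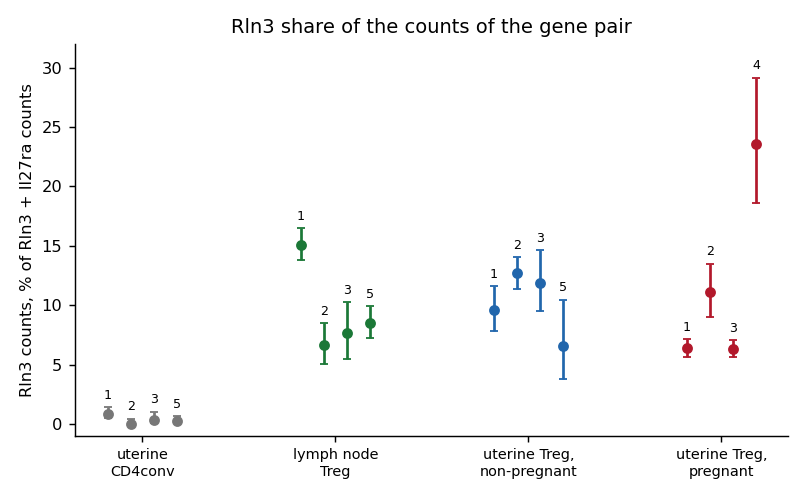
Rln3 counts as a percentage of the Rln3 and Il27ra counts of each library, with 95% Clopper-Pearson intervals that cover counting error only. The digits are replicate numbers. All CD4conv libraries sit below 1%, and the Treg libraries lie between 6.31% and 23.6%, with pregnant uterine Treg 4 highest.

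Among the Treg groups the log2 ratio of Rln3 to Il27ra counts (1 added to each count) did not differ detectably. It averaged -3.32 ± 0.58 in lymph node Treg, -3.16 ± 0.44 in non-pregnant uterine Treg and -3.11 ± 1.04 in pregnant uterine Treg (SD, n = 4), against -8.13 ± 1.25 in CD4conv. The 3 differences between Treg groups were 0.21 (pregnant uterine minus lymph node), 0.16 (non-pregnant uterine minus lymph node) and 0.05 (pregnant minus non-pregnant uterine), with an adjusted p of 0.943 each (exact two-sided permutation test, 70 arrangements, smallest possible p 0.0286 before adjustment, adjusted over 3 comparisons). After that adjustment a difference in only 1 of the 3 comparisons could not have passed 0.05, however clear. Without pregnant uterine Treg 4 the pregnant minus lymph node difference was -0.26 and the pregnant minus non-pregnant difference -0.43, and without non-pregnant uterine Treg 5 the latter was -0.15. Leaving out the libraries above 2 CPM per kilobase of receptor-gene rate, a limit chosen after seeing the data, left 6 Treg libraries. The 3 differences in the same order were then -0.93, -0.047 and -0.88 (adjusted p 0.5, 1 and 0.5, exact two-sided permutation test), so each changed sign. With so few libraries this test could not pass 0.05 whatever the counts, so these p-values do not show the groups to be alike.

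Across the 12 Treg libraries Rln3 and Il27ra were positively correlated. On the log2(CPM + 1) scale Pearson's r was 0.678 (permutation p = 0.0191, adjusted 0.0416) and Spearman's rho 0.783 (permutation p = 0.00362, adjusted 0.0109), with p-values adjusted over 12 relations. Without the 2 libraries farthest from the median of Il27ra, non-pregnant uterine Treg 5 and pregnant uterine Treg 4, r was 0.621. With TMM-scaled library sizes, where both genes of a library are divided by the same factor, r was 0.841 (permutation p = 0.0003, adjusted 0.0018) and rho 0.923 (adjusted permutation p = 0.00096). Within the 8 libraries of batch 2 r was 0.865 (permutation p = 0.0393, adjusted 0.0673) and rho 0.524 (permutation p = 0.197), and r fell to 0.524 without the 2 farthest libraries. Batch 1 holds 4 Treg libraries, and no correlation is given over fewer than 6. After each group mean was subtracted, r over the 12 libraries was 0.560 (permutation p = 0.0872, adjusted 0.105), so a relation within groups was not shown at the threshold. Without non-pregnant uterine Treg 5 and pregnant uterine Treg 4, that r fell to 0.368. This permutation exchanged values between groups of unlike spread, so its p is approximate. It does not show the relation to be absent within groups. These libraries also differ in their receptor-gene reads: over the 12 Treg libraries the log2 receptor-gene rate correlated at r = -0.484 with Rln3, -0.676 with Il27ra and -0.764 with Foxp3, given as descriptions. The part of that rate in the relation of Rln3 with Il27ra was not tested.

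**Figure D4:**
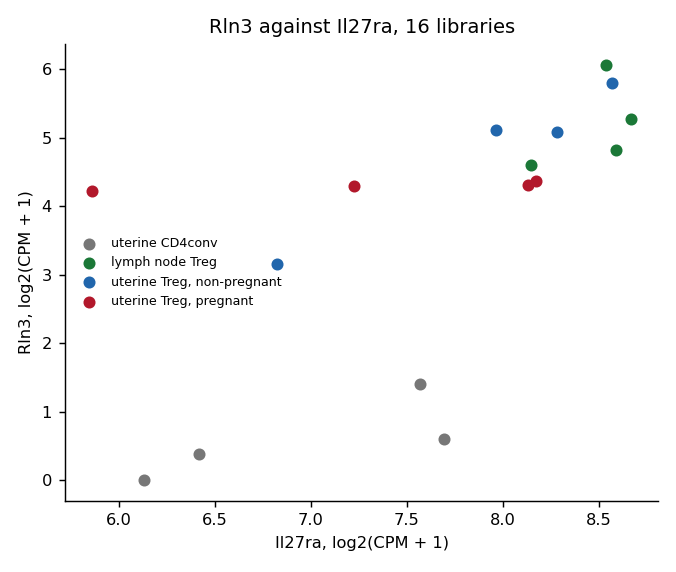
Rln3 against Il27ra in each of the 16 libraries, both as log2(CPM + 1) and coloured by group. The CD4conv libraries reach Il27ra levels like those of several Treg libraries at far lower Rln3, and the pregnant uterine Treg libraries form a nearly level row over a wide range of Il27ra on this total-count scale.

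Il27ra ranked high in likeness to Rln3, but many genes were more like Rln3 than this neighbour was. Over all 16 libraries, among 14742 protein-coding genes with a mean of at least 5 CPM, the highest Pearson r with Rln3 was that of Ikzf2 (0.960), which encodes the Treg transcription factor Helios. Foxp3 (0.949), Utf1 (0.916), Ctla4 (0.902) and Serpina3g (0.897) followed. Utf1 is a chromatin-associated factor known from embryonic stem cells, Ctla4 an inhibitory receptor of Treg and Serpina3g a serine protease inhibitor. Il27ra was at rank 175 with r = 0.657, and 1.18% of the genes lay above it, while the median r over the genes was -0.03. These values include the CD4conv libraries, by which Rln3 was chosen, and the genes share libraries and depth. Over the 12 Treg libraries alone the order was different: Grpel1 (0.887), a mitochondrial import co-chaperone, Hcst (0.884), the signalling adaptor DAP10, Cyba (0.878), a subunit of the NADPH oxidase, Ggnbp2 (0.874) and Isca2 (0.872), an iron-sulfur cluster assembly factor, led. Il27ra was at rank 283 there, with 1.91% of genes above it, and Foxp3 at rank 1658 with r = 0.447. The median r over the 12 Treg libraries was -0.23.

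Other genes around the pair were measured for comparison. The mean of Palm3, a paralemmin family gene that meets the 3′ end of Il27ra, was 2.80 ± 1.89 CPM for CD4conv, 14.3 ± 3.58 for lymph node Treg, 12.3 ± 6.99 in non-pregnant uterine Treg and 7.65 ± 5.77 in pregnant uterine Treg (SD, n = 4). Its order of groups was that of Il27ra and of Rln3. The log2 difference in Palm3 between pregnant uterine Treg and CD4conv was 1.304 ± 0.77 (95% interval -0.37 to 2.98; adjusted p = 1.00, edgeR). Palm3 held 1.20 to 26.96 counts per 100 counts of Il27ra in the Treg libraries and 1.29 to 2.53 in CD4conv. On the Rln3 side, Rfx1, a transcription factor gene 21833 bp away, averaged 46.1 ± 11.8 CPM in CD4conv, while lymph node, non-pregnant uterine and pregnant uterine Treg averaged 80.6 ± 18.3, 99.2 ± 36.9 and 119 ± 82.6 CPM. Of the 10 protein-coding neighbours, 5 on each side of the pair, 0 were called by edgeR in any of the 4 tested comparisons, a count read against the shares called over all genes given above (0% in each comparison of Treg groups, 0.432% against CD4conv). Their median log2 difference between pregnant uterine Treg and CD4conv was -0.06, beside 0.07 over all genes tested.

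Rln1, the gene of the pregnancy hormone relaxin, was low in every group, at 0 to 4.88 times the receptor-gene rate. Its level was 4.55 to 12.1 CPM in CD4conv, 1.75 to 13.3 in lymph node Treg, 0 to 19.3 in non-pregnant uterine Treg and 0 to 15.3 in pregnant uterine Treg, and the group means lay between 7.12 and 8.41 CPM. It had a count of 0 in non-pregnant uterine Treg 1 and pregnant uterine Treg 4, and it exceeded 5 times the receptor-gene rate in 0 of 16 libraries, with a highest value of 4.88 times in pregnant uterine Treg 3. All 4 CD4conv libraries were above the rate, at 1.44 to 2.38 times. Over the 12 Treg libraries r of Rln1 with the log2 receptor-gene rate was 0.119, given as a description, so Rln1 did not follow that rate there. The exons annotated for Rln1 together cover the whole gene (3501 bp), so a level per exonic base of the spliced RNA alone would be higher. The log2 difference was 0.42 ± 1.04 for pregnant uterine against lymph node Treg, 0.77 ± 1.04 for pregnant against non-pregnant uterine Treg and -0.01 ± 1.02 for pregnant uterine Treg against CD4conv (SE; adjusted p = 1.00, edgeR, each). The 95% interval of the comparison with CD4conv, -2.23 to 2.21, is wide.

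Rxfp1, the receptor of relaxin, followed the receptor-gene rate. Its group means were 11.4 ± 6.05 CPM in CD4conv, 15.7 ± 10.3 in lymph node Treg, 19.0 ± 17.9 in non-pregnant uterine Treg and 35.8 ± 34.6 in pregnant uterine Treg (SD, n = 4). In pregnant uterine Treg the libraries stood at 2.70, 40.3, 17.8 and 82.3 CPM, and the highest was replicate 4, which also had the highest receptor-gene rate. Its exons are long (10052 bp), and per exonic kilobase it never exceeded 2.53 times that rate, with 0.114 times as the lowest value. Over the 12 Treg libraries r of Rxfp1 with the log2 receptor-gene rate was 0.838, and over all 16 it was 0.839, both given as descriptions. The log2 difference of pregnant uterine Treg was 0.99 ± 0.79 from lymph node Treg, 0.96 ± 0.79 from non-pregnant uterine Treg and 1.20 ± 0.78 from CD4conv (SE; adjusted p = 1.00, edgeR, each). An annotated RNA in an intron of Rxfp1, Gm26984, lies within the gene on the same strand.

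The other relaxin family genes gave little signal apart from Insl6. Insl6, an insulin-like peptide known from the testis, averaged 8.38 ± 2.86 CPM in CD4conv, 11.9 ± 1.84 in lymph node Treg, 5.52 ± 4.32 in non-pregnant uterine Treg and 5.61 ± 5.30 in pregnant uterine Treg (SD, n = 4). It was above 5 times the receptor-gene rate in 9 of 16 libraries, and unlike Rln3 these included all 4 of CD4conv. Rxfp3, the main receptor of relaxin 3, exceeded 5 times the rate in 1 library, of non-pregnant uterine Treg, at 7.44 times and 43.2 CPM, and its median over the 16 libraries was 0.516 times the rate. Insl3, Insl5, Rxfp2 and Rxfp4 exceeded it 5-fold in 0 of 16 libraries. Of the 8 family genes besides Rln3, 5 were tested, and 0 were called in any of the 4 tested comparisons, where 0% to 0.432% of all genes were called. Their median log2 difference was 0.71 for pregnant uterine against lymph node Treg and 0.19 for pregnant uterine Treg against CD4conv, beside 0.06 and 0.07 over all genes tested.

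**Figure D5:**
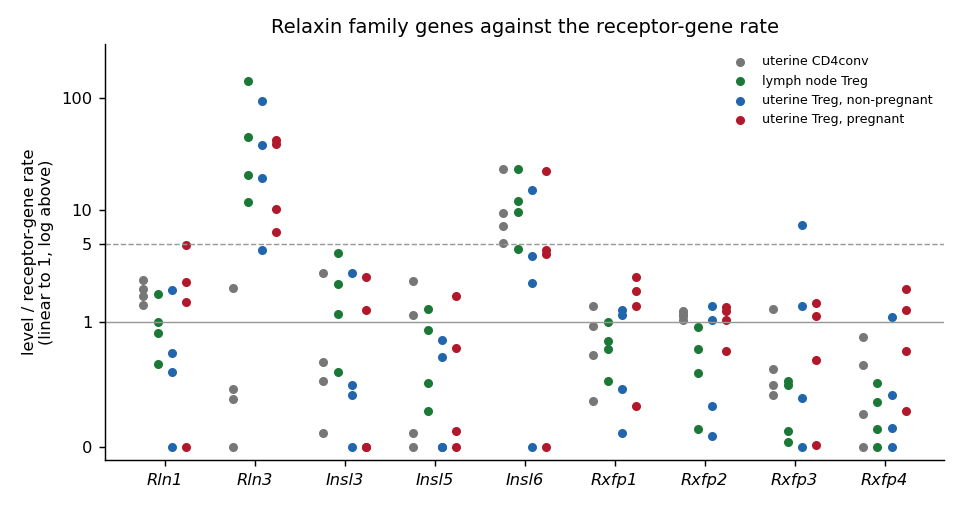
Level of each of the 9 relaxin family genes per exonic kilobase, divided by the receptor-gene rate of the same library, on an axis that is linear up to 1 and logarithmic above; each point is a library, coloured by group, and lines mark 1 and 5 times the rate. Rln3 exceeds 5 times the rate in 11 libraries, all of them Treg, Insl6 in 9 of mixed groups, Rxfp3 in 1, and the other 6 genes in none.

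For Il27ra, the genes of its own pathway were read alongside. Of 13 pathway genes, 11 exceeded 5 times the receptor-gene rate in at least 8 libraries, and 0 were called by edgeR in the 4 tested comparisons, where 0% of all genes were called between Treg groups and 0.432% against CD4conv. With shares that low, a count of 0 is no result about the list. Their median log2 difference was 0.03 for pregnant uterine against lymph node Treg, -0.37 for non-pregnant uterine against lymph node Treg, 0.23 for pregnant against non-pregnant uterine Treg and 0.28 for pregnant uterine Treg against CD4conv, beside 0.06, -0.06, 0.11 and 0.07 over all genes tested. Il6st, the partner chain of Il27ra, was at 84.3 ± 48.1 CPM in CD4conv, 171 ± 56.5 in lymph node Treg, 110 ± 55.1 in non-pregnant uterine Treg and 100.3 ± 19.6 in pregnant uterine Treg (SD, n = 4). Of the cytokine itself, Ebi3 averaged 12.01 ± 2.50 CPM in lymph node Treg, 3.52 ± 1.04 in non-pregnant uterine Treg, 6.58 ± 1.07 in pregnant uterine Treg and 2.82 ± 1.60 in CD4conv. The lymph node and non-pregnant uterine libraries did not overlap in Ebi3 (8.73 to 14.8 against 2.55 to 4.95 CPM), with a log2 difference of -2.04 ± 0.78 that did not pass (adjusted p = 1.00, edgeR). Il27 averaged 5.81 ± 4.11 CPM in CD4conv and 0.450 ± 0.516 in lymph node Treg. Socs1, a feedback inhibitor of cytokine signalling, averaged 96.7 ± 27.1 CPM in lymph node Treg against 26.7 ± 18.4 in non-pregnant uterine Treg, without overlap and with a log2 difference of -2.02 ± 0.73 (adjusted p = 1.00, edgeR). Jak1, the kinase bound to the receptor, was at 670 ± 175 to 909 ± 405 CPM over the groups, and its largest tested log2 difference was 0.37 ± 0.65, for pregnant uterine Treg against CD4conv.

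Genes that are known to respond to interleukin 27 in T cells were read against the same shares of all genes called (0% between Treg groups, 0.432% against CD4conv): 0 of 13 were called in any of the 4 tested comparisons. Irf1, an interferon-regulated transcription factor and the highest of them, averaged 1094 ± 113 CPM in lymph node Treg, 569 ± 158 in non-pregnant uterine Treg, 550 ± 331 in pregnant uterine Treg and 569 ± 104 in CD4conv (SD, n = 4). Cxcr3, a chemokine receptor, averaged 26.8 ± 5.23 CPM in lymph node Treg against 139 ± 118 in non-pregnant and 132 ± 63.2 in pregnant uterine Treg, without overlap. Its log2 difference was 2.48 ± 0.69 for non-pregnant uterine against lymph node Treg (adjusted p = 1.00, edgeR) and 2.46 ± 0.69 for pregnant uterine against lymph node Treg (adjusted p = 0.955, edgeR). Tigit, an inhibitory receptor, was at 75.4 ± 35.0 CPM in pregnant uterine Treg and 16.9 ± 4.74 in CD4conv, a log2 difference of 2.13 ± 0.61 (adjusted p = 0.212, edgeR). Maf, a transcription factor, averaged 68.1 ± 15.9 CPM in lymph node Treg against 150 ± 31.1 in pregnant uterine Treg, and Cd274, the ligand PD-L1, at 139 ± 46.9 and 172 ± 88.7 CPM.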

How the data were processed

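RNA of sorted CD4-positive T cells was measured in 16 libraries. Per the labels' protocols, cDNA was made with SMART-Seq v4 and libraries with Nextera XT, which do not mark strand, and sequenced in paired reads of 150 bp. The submitters' processing notes name GRCm38, HISAT2, featureCounts, Trimmomatic, DESeq2 and SAMtools, without versions or settings. Deposited were raw read counts of 49585 genes per library; the 16 single-library files were identical to the table. GENCODE M21 named 49326 genes and gave exonic lengths. Reads of multigene families and overlapping genes could be split by the authors' counting.

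CPM was computed over all counts of a library, with total counts of 1718558 to 15190212. The counts as deposited were tested with edgeR 4.0.16 in R 4.3.3 (quasi-likelihood, TMM, filterByExpr, robust, all 16 libraries with 4 group means, 12 residual degrees of freedom) with Benjamini-Hochberg adjustment over 30096 genes and a threshold of 0.05. SE is the absolute log2 fold change over the square root of F, and 95% intervals use 12 degrees of freedom. Ratios and correlations used permutation tests (SciPy; 100000 resamples for correlations). The background is the mean rate per exonic base of 1427 olfactory and vomeronasal receptor genes, which assumes an even rate. DESeq2 1.42.0, other scalings and filters, a 2-group fit, left-out libraries and a replicate block were alternatives. The script was tested on simulated data.

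The members, gene lists and tests were chosen with earlier results of these data known. Named genes are the 4 members, Foxp3, the relaxin family and interleukin 27 pathway genes with a group mean of at least 5 CPM. The 5 highest response genes, the neighbours, the 5 genes most like Rln3 and some marker list genes are also named. p-values measure the spread between pools of mice. Sequencing batch coincides with groups and could not be a term.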

Additional observations from a re-analysis of the deposited data

How the results depend on the processing

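Over the alternatives run, no difference of Il27ra, Rln1 or Rxfp1 in the 4 tested comparisons, and none of Rln3 between Treg groups, passed the threshold (lowest adjusted p 0.643 for Rln3, 0.285 for Il27ra, 0.967 for Rln1 and 0.724 for Rxfp1). Calls over all genes depended on the method. DESeq2 called 45 genes for pregnant uterine against lymph node Treg, 31 for non-pregnant uterine against lymph node Treg, 17 for pregnant against non-pregnant uterine Treg, 311 for pregnant uterine Treg against CD4conv and 322 for non-pregnant uterine Treg against CD4conv (edgeR 0, 0, 0, 130 and 156). Among genes above background, a set that holds Rln3 and Il27ra, edgeR called 111 and 61 for pregnant and non-pregnant uterine against lymph node Treg and 396 and 288 for the same groups against CD4conv. A fit of only the groups compared called 78 for pregnant uterine Treg against CD4conv. Leaving out 1 library gave, in the order of the DESeq2 counts, 0 to 1, 0 to 0, 0 to 0, 72 to 162 and 72 to 170 calls. It gave log2 differences that crossed 0 for Rln3 in non-pregnant uterine against lymph node Treg (-1.10 to 0.37), for Il27ra in pregnant against non-pregnant uterine Treg (-0.66 to 0.23), for Rln1 in pregnant uterine against lymph node Treg (-0.077 to 0.84), non-pregnant uterine against lymph node Treg (-1.25 to 0.047) and pregnant uterine Treg against CD4conv (-0.52 to 0.39), and for Rxfp1 in non-pregnant uterine Treg against lymph node Treg (-0.39 to 0.41) and CD4conv (-0.20 to 0.60). The ratio of Rln3 to Il27ra ranged from -0.26 to 0.49 (pregnant uterine minus lymph node), 0.0036 to 0.44 (non-pregnant uterine minus lymph node) and -0.43 to 0.31 (pregnant minus non-pregnant). Without libraries above 2 CPM per kilobase of receptor-gene rate, a limit chosen after seeing the data, these were -0.93, -0.047 and -0.88 (adjusted p 0.5, 1 and 0.5, exact permutation). The 6 Treg libraries left are too few for that permutation test to pass 0.05 whatever the counts. Over them the correlation of Rln3 with Il27ra was r = 0.830 (n = 6, permutation p = 0.0639). With group means subtracted, the correlation over the 12 Treg libraries was 0.560. With the median instead of the mean receptor rate, Rln1 and Rxfp1 each exceeded 5 times the rate in 2 libraries, not 0. The main tests took the libraries as unpaired. Same-numbered libraries correlated at -0.467 to 0.521 (lymph node and non-pregnant uterine Treg) and 0.00617 to 0.257 (CD4conv and non-pregnant uterine Treg). These values cannot show whether same-numbered libraries came from the same pools of mice. With the replicate block 0 and 222 genes were called for non-pregnant uterine Treg against lymph node Treg and CD4conv, and Rxfp1 was at -0.38 and -0.00039. Where a direction or count moved, the cause was not tested. Counts of 0 to 15 limit Rln3 in CD4conv.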

Other observations

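Samd1, a gene 29884 bp beyond Il27ra whose product binds CpG islands, had its lowest mean in pregnant uterine Treg and did not pass the test. Its relation to Rln3 was not tested. Its mean was 7.95 ± 9.02 CPM in CD4conv, 5.26 ± 4.76 in lymph node Treg, 1.73 ± 1.54 in non-pregnant uterine Treg and 0.912 ± 0.777 in pregnant uterine Treg (SD, n = 4). Its counts were few, 39 in all in pregnant and 28 in non-pregnant uterine Treg, with 1 library at 0 in each group. The pregnant uterine libraries lay below all lymph node Treg libraries, with a log2 difference of -2.72 ± 1.21 (SE) that did not pass and crosses the batches. They also lay below all CD4conv libraries, with a log2 difference of -3.45 ± 1.24 (SE; adjusted p = 0.569, edgeR). That was the lowest log2 difference of the 10 neighbours in this comparison, so Samd1 is the extreme of a list.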
